A study of Mus musculus with 12 samples.

Results

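The set described here is 34 genes of goblet cells and deep crypt secretory cells, the mucus-producing cells of the colon. The genes were listed by name, and each was represented by every non-control probe whose accession maps to its symbol, which gave 40 probes. Of the 34 genes, 33 had a signal well above background on every array of 1 group or more and entered the test, among 24245 genes tested in all. The exception was Tff1, a trefoil peptide better known from the stomach, whose 2 probes were above background on at most 2 of the 3 arrays of any group. The set holds 4 mucins, 11 secreted products, 5 enzymes of mucin glycosylation, 6 regulators and endoplasmic reticulum factors, and 8 surface, vesicle and other marker genes.

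Goblet cells secrete the gel that separates the epithelium from gut bacteria. The gel is a polymer of the mucin Muc2, which is folded in the endoplasmic reticulum with the help of Agr2, coated with O-linked sugars in the Golgi and packed into granules together with trefoil factors and lectins. Deep crypt secretory cells lie between the stem cells at the base of colonic crypts, carry the receptor Kit and secrete Reg4, and both lineages depend on the transcription factor Atoh1.

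RNA came from colonic crypts of C57BL/6 mice grown in Matrigel as a stem cell enriched organoid culture. The 3 wild-type mice and the 3 VDR KO mice, in which the gene of the vitamin D receptor is knocked out, were 2 or 3 months old. Each mouse gave 1 culture treated with EtOH, the vehicle, and 1 treated with 1,25(OH)2D3 (calcitriol, the hormone that binds the receptor) at 100 nM, added again every 48 h. The treatment lasted 62 h by the sample descriptions and 72 h by the design text, so its length is uncertain. This gave 12 one-colour arrays in 4 groups of 3. A number from 1 to 3 names the mouse within a genotype, and the vehicle and calcitriol arrays of 1 number and genotype come from the same animal. In cultures of mixed cells such as these, fewer cells of a type and less RNA per cell cannot be told apart. The labels name no allele, and each mouse stands for 1 culture line.

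All levels below are log2 of the processed spot signal minus the 75th percentile of the array, so 0 is the brightness of that percentile, a difference of 1 is a 2-fold difference in signal, and levels of different probes are not compared. The 75th percentile itself was 580.0 to 791.4 signal units per array. A gene is called where its p, adjusted over all 24245 genes by the Benjamini-Hochberg method in limma, is under 0.05. The first fit compares the 4 group means. In the second, the mouse (or the replicate number, between genotypes) enters as a block, so that calcitriol is compared with vehicle within each animal. Each SE and interval below is that of the first fit unless it is called blocked. It is therefore not the error behind a blocked adjusted p, such as the blocked SE of 0.07 for Tff3 in wild type, where the first fit gave 0.36. An alternative takes the mouse as a random block, with an estimated correlation of 0.47 between the arrays of a mouse. The Vdr probe read 0.82 to 2.01 on the 6 wild-type arrays and -0.43 to 0.37 on the 6 knockout arrays, without overlap. Xist, which is transcribed from an inactive X chromosome, read -7.95 to -3.66 on the 4 arrays of number 2, labelled Female, and 1.13 to 1.89 on the other 8, including the 4 of number 1 labelled Male, so the sex labels of numbers 1 and 2 go against the data and are not used. Wild-type vehicle array 2 stood apart, with 72.6% of its probes well above background, where the other 11 arrays had 54.1% to 65.9%. The arrays were spread over 3 slides, which held 2, 3 and 7 of them. All 3 wild-type calcitriol arrays were on the largest slide, and wild-type vehicle arrays 1 and 2 were not, so only wild-type mouse 3 had both of its arrays on 1 slide. No knockout mouse did. Knockout vehicle arrays 1 and 2 were alone on the smallest slide, so in vehicle the genotypes differed in slide for numbers 1 and 2. Knockout calcitriol array 3 was on the slide of 3 arrays, and the other knockout arrays were on the largest.

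The promoter windows below are those of Lrrc26, Mptx1, Slc12a8, Galnt3 and Reg4, the members called in wild type for which the RefSeq promoter table used here has an entry, shown so that genes that moved with calcitriol can be read beside one another. They are on GRCm38.p6, on the plus strand except Galnt3 on the minus strand, from 250 bases before to 50 after the annotated start. Capitals mark matches, on either strand, to the half-sites AGGTCA and GGTTCA of the vitamin D receptor's response element, to the E-boxes CAGCTG and CAGATG bound by factors of Atoh1's class, and to the TATA-box core TATAA. For Slc12a8, 1 of its 3 annotated starts is shown, the one with the most matches.
Lrrc26 chr2:25289661-25289960: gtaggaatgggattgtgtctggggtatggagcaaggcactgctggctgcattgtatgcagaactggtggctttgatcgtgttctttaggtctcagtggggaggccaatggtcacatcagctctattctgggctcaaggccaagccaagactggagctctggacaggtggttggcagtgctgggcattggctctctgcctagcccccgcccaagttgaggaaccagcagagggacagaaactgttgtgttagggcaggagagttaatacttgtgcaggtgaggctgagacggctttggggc
Mptx1 chr1:174330268-174330567: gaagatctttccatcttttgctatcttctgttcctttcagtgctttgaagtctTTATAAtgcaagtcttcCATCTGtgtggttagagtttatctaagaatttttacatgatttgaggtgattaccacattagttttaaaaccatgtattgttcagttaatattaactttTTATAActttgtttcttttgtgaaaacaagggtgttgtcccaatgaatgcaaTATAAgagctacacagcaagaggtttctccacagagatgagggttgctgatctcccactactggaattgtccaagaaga
Slc12a8 chr16:33517945-33518244: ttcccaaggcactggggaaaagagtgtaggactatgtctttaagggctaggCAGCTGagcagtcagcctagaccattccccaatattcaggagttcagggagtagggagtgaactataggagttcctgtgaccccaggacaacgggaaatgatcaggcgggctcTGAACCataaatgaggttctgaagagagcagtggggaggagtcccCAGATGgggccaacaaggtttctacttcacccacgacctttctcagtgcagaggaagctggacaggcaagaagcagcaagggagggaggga
Galnt3 chr2:66124744-66125043: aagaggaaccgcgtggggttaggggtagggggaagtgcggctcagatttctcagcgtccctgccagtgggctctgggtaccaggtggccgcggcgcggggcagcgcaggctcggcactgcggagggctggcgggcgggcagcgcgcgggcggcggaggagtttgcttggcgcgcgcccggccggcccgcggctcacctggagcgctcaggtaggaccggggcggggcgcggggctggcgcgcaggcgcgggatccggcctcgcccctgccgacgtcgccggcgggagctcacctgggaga
Reg4 chr3:98221906-98222205: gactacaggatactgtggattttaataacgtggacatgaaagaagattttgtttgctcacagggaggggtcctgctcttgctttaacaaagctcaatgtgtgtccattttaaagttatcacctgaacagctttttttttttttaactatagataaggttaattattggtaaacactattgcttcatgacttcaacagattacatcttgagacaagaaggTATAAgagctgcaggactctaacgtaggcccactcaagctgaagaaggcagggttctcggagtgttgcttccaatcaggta
With -1 as the base just before the start, a TATAA began at -29 in Mptx1 and at -31 in Reg4. Farther from the start, Mptx1 had matches at -197 and -196 and at -81 and -80. Each of these pairs is 1 marked stretch, TTATAA, that matches on both strands. The Slc12a8 window held GGTTCA, read on the opposite strand, at -86, and E-boxes at -199 and -41. Mptx1 held an E-box at -180. The Lrrc26 and Galnt3 windows held no match to these letters. Of the members, 18 had a promoter entry, 25 windows in all. The paired form of the response element, with a 3-base gap (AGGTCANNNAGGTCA or GGTTCANNNGGTTCA), was in none of the 25 and in 0.00609% of all 32851 windows for either spelling. GGTTCA was in 10.4% of all windows and among members in Slc12a8, AGGTCA in 16.3% and in Muc13. TATAA was in 24.9% of all windows and in 9 of the 25, and the E-boxes CAGCTG and CAGATG were in 16.3% and 17.2% of all windows and in 4 and 7 of the 25. A match is a description of these letters and not a binding site.

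The comparison of calcitriol with vehicle in wild-type organoids asks what the hormone did to these genes where its receptor was present. Lrrc26, a subunit of potassium channels in secretory epithelia, rose in every wild-type mouse and was the 1 member called by the comparison of group means, in which 0.161% of all genes were called. With the mouse as a block, 9 members were called higher, against 0.672% of all genes, and 1 was called lower, against 0.297%. The 9 were the secreted products Mptx1, Tff2, Tff3 and Spink4, the glycosyltransferase Galnt3, and the marker genes Lrrc26, Bcas1, Rep15 and Slc12a8. The gene called lower was Reg4. The median difference over the 33 members was 0.20 and 25 of them were above 0, where the median over all genes was -0.03 and 44.9% were above 0. All 3 calcitriol arrays lay above all 3 vehicle arrays for 7 members (Mptx1, Galnt3, Nupr1, Lrrc26, Sytl2, Rep15 and Bcas1), against 4.74% of all genes, and for none did they all lie below, against 4.22%. The 4 mucins and the 6 regulators had no call in either fit.

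**Figure D1:**
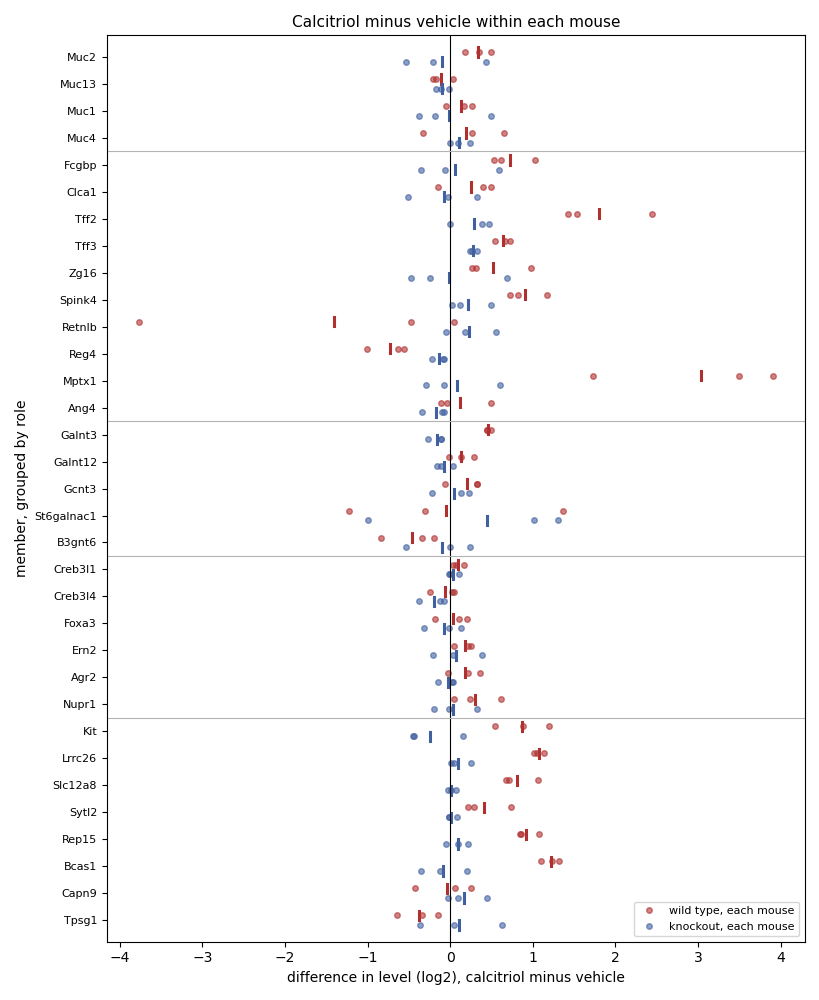
Difference in level (log2, x axis) between the calcitriol and the vehicle array of each mouse for the 33 members measured (y axis, grouped by role), with dots for the 3 wild-type mice (red) and the 3 knockout mice (blue) and a bar at each mean. The wild-type dots of Lrrc26, Bcas1, Rep15, Slc12a8, Tff2, Tff3, Spink4 and Mptx1 all lie to the right of 0.5, as do those of the uncalled Fcgbp and Kit. Those of Reg4 lie left of 0, as do those of the uncalled Tpsg1 and B3gnt6. The knockout means run from -0.24 to 0.44.

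Among the mucins, Muc2, which forms the gel, was at 1.98 ± 0.33 (SD, n = 3) in wild-type vehicle and 2.32 ± 0.24 in calcitriol. The difference was 0.34 (SE 0.21, adjusted p = 1 in limma, 0.553 with the mouse as a block), with 0.18, 0.35 and 0.49 in mice 1, 2 and 3. The other 3 are anchored in the cell membrane. Muc13 read 7.53, 6.81 and 6.67 on the vehicle arrays of mice 1, 2 and 3 and 7.32, 6.85 and 6.50 on the calcitriol arrays. Muc4 read 4.11, 3.84 and 3.38 in vehicle and 4.37, 4.49 and 3.05 in calcitriol. For both, the groups overlapped and the mice differed in direction, with mean differences of -0.11 (SE 0.30) and 0.19 (SE 0.33). Muc1 differed by 0.13 (SE 1.15), an error set by its very unequal level between mice. The interval for Muc2, -0.11 to 0.79, leaves room for a rise of the size seen for Tff3, and no call was made for any mucin.

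Mptx1, a mucosal pentraxin, had the largest difference of the set in wild type. It read -2.71, -1.86 and -3.89 on the vehicle arrays of mice 1, 2 and 3, and 1.20, -0.14 and -0.39 on the calcitriol arrays. Every calcitriol array was above every vehicle array, although the rise was smallest in mouse 2. The mean difference of 3.04 (SE 0.74), 8.25-fold, had an adjusted p of 0.315 between group means and of 0.0162 with the mouse as a block. Without wild-type mouse 1 or mouse 3 the blocked call was lost (adjusted p = 0.128 and 0.115), while without mouse 2 it held (0.0118).

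The trefoil factors are small peptides that are secreted with mucin and aid epithelial repair. Tff2 read -2.99, -3.17 and -4.72 in wild-type vehicle and -0.55, -1.75 and -3.18 in calcitriol, with 1 of the vehicle arrays not well above background. It was higher in every mouse, but mouse 3 in calcitriol was below mice 1 and 2 in vehicle, so the groups overlapped. The difference was 1.80 (SE 0.71; adjusted p = 1 unblocked and 0.0284 blocked). It was 0.98 with background correction by normexp, a model of signal plus background, and 1.16 without wild-type calcitriol array 1, and the call was lost with mouse as a random block (0.143). Tff3 read 6.06, 5.36 and 4.82 in vehicle and 6.60, 6.08 and 5.48 in calcitriol, again higher within each mouse and overlapping between groups. Its difference of 0.64 (SE 0.36) passed with the block (adjusted p = 0.00934), but not without it (1) or with mouse as a random block (0.320). It was 0.34 without wild-type vehicle array 3, 0.37 without calcitriol array 1 and 0.97 without vehicle array 1.

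Spink4, a peptidase inhibitor of goblet cells, read 4.66, 4.33 and 3.38 in vehicle and 5.48, 5.50 and 4.11 in calcitriol. The 3 mice rose by 0.82, 1.17 and 0.73, and mouse 3 in calcitriol remained below mice 1 and 2 in vehicle. The mean difference of 0.91 (SE 0.47) had an adjusted p of 0.0162 with the block, of 0.281 with mouse as a random block and of 1 without a block. It was 0.53 without wild-type vehicle array 3 and 1.37 without calcitriol array 3. Reg4, the lectin that marks deep crypt secretory cells, went the other way. It read 2.35, 2.08 and 1.19 in vehicle and 1.72, 1.53 and 0.18 in calcitriol, lower within each mouse and overlapping between groups. The difference was -0.73 (SE 0.59; adjusted p = 1 unblocked, 0.0192 blocked and 0.484 with mouse as a random block). It was -0.25 without wild-type calcitriol array 3. On the largest slide alone, where the vehicle array is that of mouse 3, it was -0.05.

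The other 5 secreted products measured had no call in either fit. Fcgbp, a large protein of the mucus gel, was higher in all 3 mice, by 0.53, 1.03 and 0.61, with an adjusted p of 0.167 with the block. Zg16, a lectin that binds bacteria, was also higher in all 3, by 0.31, 0.98 and 0.27 (0.510 with the block). Clca1, a mucus-processing protease, and Ang4, an antimicrobial ribonuclease, differed by 0.25 (SE 0.59) and 0.12 (SE 0.36). Retnlb, a cysteine-rich goblet cell peptide that was above background on 8 of the 12 arrays, differed by -1.40 (SE 0.94), of which mouse 2 gave -3.77. It passed the filter only through wild-type vehicle, the group where it was highest.

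Of the glycosylation enzymes, Galnt3, which places the first sugar on the mucin backbone, was the 1 member with a call. It read 4.17, 3.82 and 3.90 in wild-type vehicle and 4.61, 4.30 and 4.35 in calcitriol. The groups did not overlap and the mice rose by 0.44, 0.49 and 0.45, a mean of 0.46 (SE 0.16; adjusted p = 0.959 unblocked, 0.0251 blocked and 0.0826 with mouse as a random block). Galnt12, an enzyme of the same family, read 4.22, 4.46 and 4.31 in vehicle and 4.36, 4.44 and 4.60 in calcitriol, a difference of 0.13 (SE 0.17) with overlapping groups. Gcnt3, which branches the sugar chains, differed by 0.20 (SE 0.18). St6galnac1, which adds sialic acid, differed by -0.05 (SE 0.50) and B3gnt6, which makes the core 3 chain, by -0.46 (SE 0.36). St6galnac1 went in opposite directions in mouse 1 (1.37) and mouse 3 (-1.22).

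The regulators and endoplasmic reticulum factors had the narrowest range of the 5 roles, -0.06 to 0.30, with a median of 0.13. Nupr1, a stress-induced nuclear protein, read 7.44, 7.32 and 7.42 in vehicle and 7.68, 7.92 and 7.47 in calcitriol. These arrays did not overlap, but mouse 3 differed by 0.05 only, and the mean of 0.30 (SE 0.14) had adjusted p = 1 unblocked and 0.540 blocked. Agr2, the disulfide isomerase needed for Muc2, read 6.27, 5.94 and 5.23 in vehicle and 6.24, 6.15 and 5.59 in calcitriol, with overlapping groups and a difference of 0.18 (SE 0.27). Foxa3, a goblet cell transcription factor, differed by 0.04 (SE 0.21), and the membrane-bound factors Creb3l1 and Creb3l4 by 0.09 (SE 0.17) and -0.06 (SE 0.24). Ern2, the stress sensor of mucus-producing cells, differed by 0.18 (SE 0.43).

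The 8 surface, vesicle and other marker genes had the highest median of the 5 roles, 0.84. With the mouse as a block, 4 of them were called higher. Lrrc26 read 3.60, 3.82 and 4.03 in wild-type vehicle and 4.63, 4.96 and 5.09 in calcitriol. Both groups were narrow and well apart, and the mice rose by 1.02, 1.14 and 1.05. The mean difference was 1.07 (SE 0.17), 2.10-fold, with an adjusted p of 0.0343 between group means and 0.000831 with the block. The first call was lost without wild-type vehicle array 1, 2 or 3 (adjusted p = 0.115, 0.150 and 0.0622) and without calcitriol array 2 or 3 (0.217 and 0.166). With the block it held without wild-type mouse 1, 2 or 3 (0.0161, 0.0230 and 0.0102) and was lost when both mice numbered 2 were left out (0.147). With slide as a block the difference was 0.97 (adjusted p = 0.511), and on the largest slide alone 0.86 (0.612).

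Bcas1, a marker of goblet cells, read 1.00, 0.52 and -0.09 in vehicle and 2.10, 1.83 and 1.14 in calcitriol. All calcitriol arrays were above all vehicle arrays, and the mice rose by 1.10, 1.32 and 1.23. The mean of 1.22 (SE 0.35), 2.32-fold, had an adjusted p of 0.620, and of 0.00404 with the block. Rep15, an effector of the vesicle regulator Rab15, read 0.54, 0.61 and 0.03 in vehicle and 1.61, 1.45 and 0.89 in calcitriol, also without overlap. Its difference was 0.92 (SE 0.28; adjusted p = 0.744 unblocked and 0.00586 blocked). Slc12a8, a solute carrier, read -0.06, 0.33 and -0.45 in vehicle and 1.00, 1.00 and 0.26 in calcitriol. It was higher in every mouse, and 1 calcitriol array lay below the highest vehicle array. The difference was 0.81 (SE 0.23; adjusted p = 0.578 unblocked and 0.0147 blocked), and the gene's other probe gave 0.84.

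Kit, the receptor kinase of deep crypt secretory cells, was higher by 1.20, 0.88 and 0.54 in the 3 wild-type mice without a call (adjusted p = 0.110 with the block). Sytl2, a vesicle docking protein, read 0.16, 0.36 and 0.36 in vehicle and 0.45, 1.09 and 0.58 in calcitriol. These arrays did not overlap, and the difference of 0.41 (SE 0.30) had an adjusted p of 0.239 with the block. Tpsg1, a membrane-bound tryptase, read 1.62, 1.35 and 0.40 in vehicle and 0.97, 1.02 and 0.25 in calcitriol, lower in each mouse and overlapping between groups (difference -0.38, SE 0.31). Capn9, a calpain of the digestive tract, differed by -0.04 (SE 0.31).

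**Figure D2:**
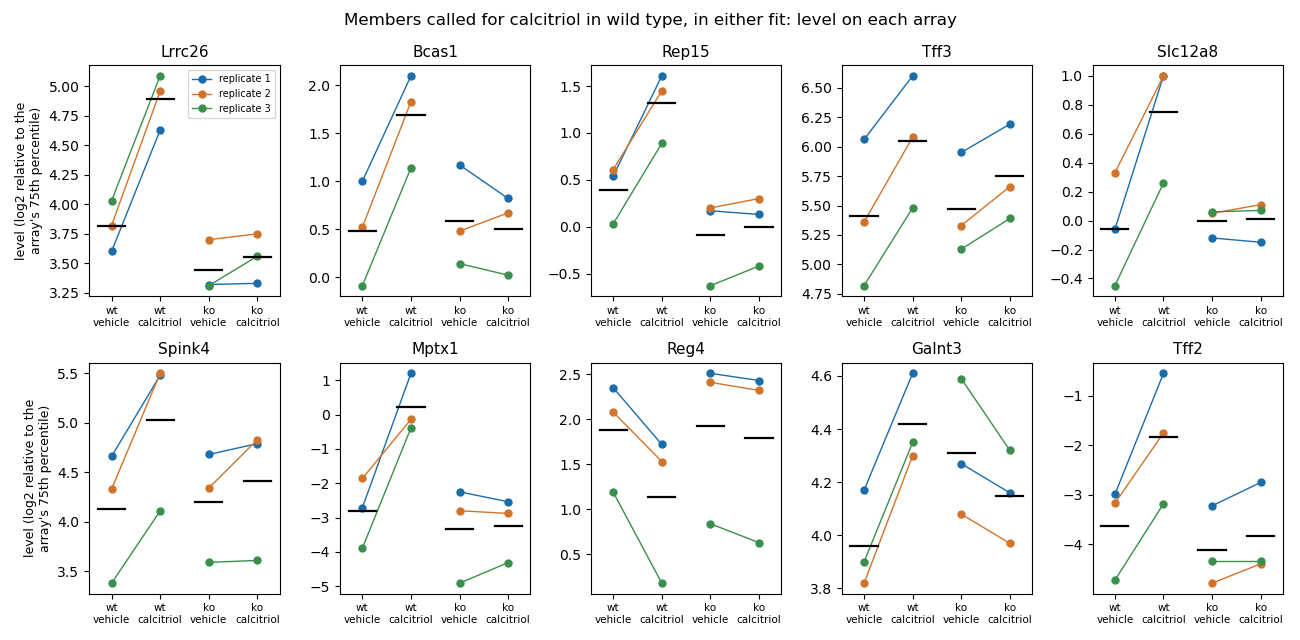
Level on each array (y axis, log2 relative to the array's 75th percentile, with a range of its own in each panel) of the 10 members called for calcitriol in wild type in either fit, in the 4 groups (x axis). Lines join the vehicle and calcitriol arrays of 1 mouse, colours give the replicate number and black bars the group means. All wild-type lines rise except those of Reg4, and Lrrc26, Bcas1, Rep15, Mptx1 and Galnt3 have no overlap between the wild-type groups.

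In wild-type mouse 3, which had both arrays on 1 slide and is among the mice whose agreement made these calls, the differences were 1.05 for Lrrc26, 1.23 for Bcas1, 0.86 for Rep15, 0.71 for Slc12a8, 3.50 for Mptx1, 1.54 for Tff2, 0.66 for Tff3, 0.73 for Spink4, 0.45 for Galnt3 and -1.01 for Reg4. With slide as a block in place of mouse, no member was called, while the differences were 0.97 for Lrrc26, 1.26 for Bcas1, 0.89 for Rep15, 1.04 for Slc12a8, 3.04 for Mptx1, 2.09 for Tff2, 0.76 for Tff3, 0.88 for Spink4, 0.58 for Galnt3 and -0.97 for Reg4. With mouse as a random block, 5 kept their call (Lrrc26, Mptx1, Bcas1, Slc12a8 and Rep15) and Tff2, Tff3, Spink4, Reg4 and Galnt3 lost it. The blocked calls were sensitive to the number of mice. When wild-type mouse 1 alone was left out, 2 members kept a call (Lrrc26 and Bcas1), without mouse 2 alone 2 did (Lrrc26 and Mptx1), and without mouse 3 alone 3 did (Lrrc26, Rep15 and Bcas1). Over all 24245 genes, 67, 46 and 87 were called in these fits, and 168 with mouse as a random block.

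In knockout organoids the same treatment gave no called member and no called gene at all in limma, with or without the block (0% of genes in both). Without adjustment, p was under 0.05 for 1400 genes and no member between group means, and for 1939 genes and 2 members with the block. The members ran from -0.24 (Kit) to 0.44 (St6galnac1), with a median of 0.01 and 18 of 33 above 0, where the median over all genes was 0.04 and 59.1% were above 0. Lrrc26 read 3.32, 3.70 and 3.31 in knockout vehicle and 3.33, 3.75 and 3.56 in calcitriol, a difference of 0.10 (95% interval -0.27 to 0.48). Mptx1 read -2.25, -2.80 and -4.91 in vehicle and -2.54, -2.88 and -4.31 in calcitriol, with an interval of -1.54 to 1.70. Each knockout group overlapped the other for both genes, and Lrrc26 in every knockout array was below every wild-type calcitriol array. Bcas1 read 1.17, 0.48 and 0.14 in knockout vehicle and 0.82, 0.67 and 0.02 in calcitriol, with overlapping groups and a difference of -0.09 (SE 0.35). Tff3 was higher in each knockout mouse, by 0.24, 0.33 and 0.27, without a call (adjusted p = 0.576 with the block). Reg4 differed by -0.08, -0.09 and -0.22 in the 3 knockout mice (adjusted p = 0.656 with the block).

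Whether the calcitriol effect differed between the genotypes was tested directly. Between group means no member was called (0.0289% of all genes were), and 5 members had an unadjusted p under 0.05, against 3.38% of all genes. With the mouse as a block 2 members were called, against 0.239% of all genes. For Lrrc26 the effect was 0.97 larger in wild type (SE 0.24; adjusted p = 0.886 unblocked and 0.0171 blocked), and for Bcas1 it was 1.31 larger (SE 0.50; 1, and 0.0319). With mouse as a random block Lrrc26 was called (0.0386) and Bcas1 was not (0.221). Both blocked calls were lost without the mice numbered 1 (adjusted p = 0.403 and 0.350) and without those numbered 2 (0.943 and 0.490). Mptx1 had the largest value, 2.96 (SE 1.05), with an adjusted p of 0.164 with the block, and Galnt3 and Rep15 came to 0.62 (0.0761) and 0.83 (0.0891). For Tff2, Tff3, Spink4 and Reg4 the blocked adjusted p of the difference was 0.361, 0.460, 0.313 and 0.292, so their effects in the 2 genotypes were not shown to differ.

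Without calcitriol, no member was called between the genotypes in either fit (0.00412% of all genes were called in each), the median was 0.08, and 21 of 33 were above 0, where the median over all genes was -0.06 and 41.3% were above 0. The groups did not overlap for Nupr1, higher by 0.19 (SE 0.14) in the knockout, and for Retnlb, with a difference of -2.00 (SE 0.94, adjusted p = 0.582 in limma). Retnlb was above background on 1 of the 3 knockout vehicle arrays, and number 2 gave -4.01. It passed the filter only through wild-type vehicle, the group where it was highest. The filter favours such a difference, so its lack of overlap is not taken as a result. Over all genes 2.27% were higher and 5.91% lower without overlap, so 1 member each way is near that background. An unadjusted p was under 0.05 for 1 member between group means, against 8.74% of all genes, and for 10 with the block, against 14.4%.

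In calcitriol, the knockout had lower levels of several members. Lrrc26 differed by -1.35 (SE 0.17), 2.54-fold lower, and was called between group means (adjusted p = 0.00597), where 0.206% of all genes were. It was called without each of the 6 arrays in turn (adjusted p from 0.0115 to 0.0487) and was not on the largest slide alone (0.167) or with scaling to the median (0.456). With the replicate number as a block 4 members were called lower, against 0.528% of all genes called in either direction. They were Lrrc26 (adjusted p = 0.0039), Mptx1 with a difference of -3.47 (SE 0.74; 0.00376), Rep15 with -1.31 (SE 0.28; 0.00763) and Bcas1 with -1.19 (SE 0.35; 0.00582). The 4 blocked calls were lost without number 1 (adjusted p from 0.0558 to 0.120). With mouse as a random block Lrrc26 was called (0.00204) and Mptx1, Rep15 and Bcas1 were not (0.108, 0.0711 and 0.346). Rep15 read 1.61, 1.45 and 0.89 in wild-type calcitriol and 0.13, 0.30 and -0.42 in knockout calcitriol, with no overlap. All 3 knockout arrays lay below all 3 wild-type arrays for 6 members (Muc2, Mptx1, Lrrc26, Slc12a8, Rep15 and Bcas1), against 3.71% of all genes, and above them for Tpsg1, by 0.57, against 3.70%. For Muc2 the difference was -0.53 (SE 0.21; adjusted p = 1 unblocked and 0.391 blocked). Tff2, whose groups overlapped, differed by -2.00 (SE 0.71) without a call (adjusted p = 0.0677 blocked). The median over the members was -0.27 and 11 of 33 were above 0, against a median of 0.01 and 52.8% for all genes. These 2 comparisons of genotypes and the 2 of calcitriol share their arrays, so each is given by its own values only.

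**Figure D3:**
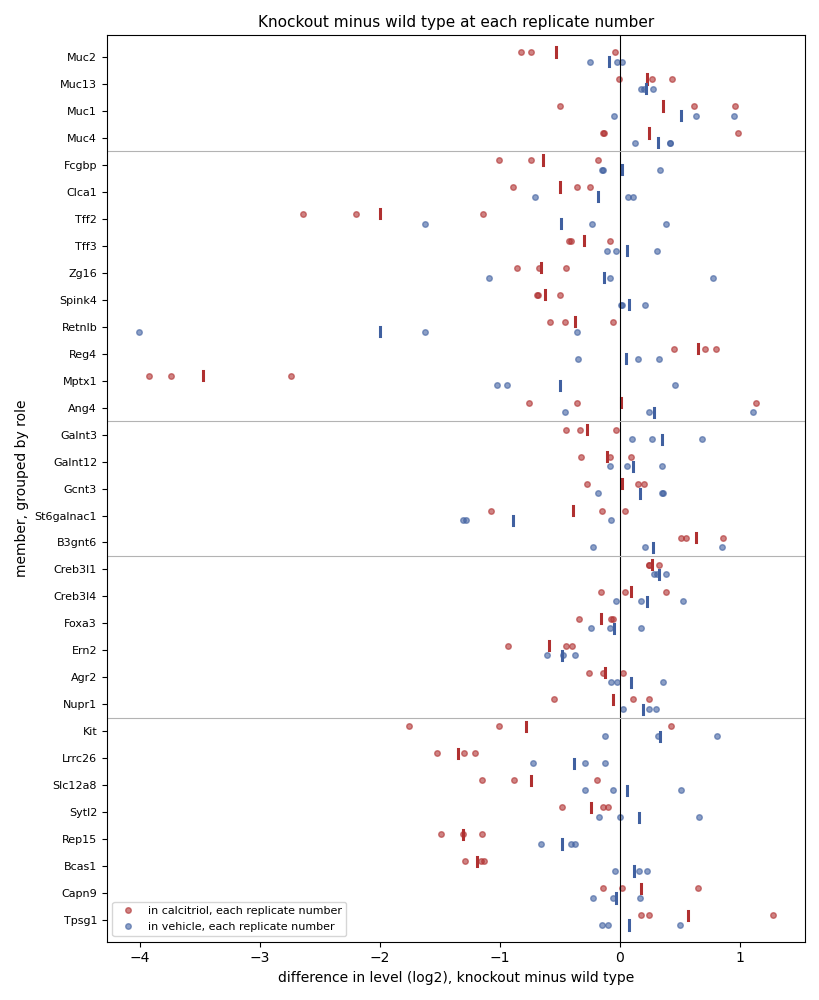
Difference in level (log2, x axis) between the knockout and the wild-type array of the same replicate number for the 33 members (y axis, grouped by role), in calcitriol (red) and in vehicle (blue), with a bar at each mean. In calcitriol all 3 dots of the called members Mptx1, Lrrc26, Rep15 and Bcas1 and of the uncalled Tff2 lie between -3.92 and -1.13. In vehicle the means of these members run from -0.50 to 0.12.

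The members also varied between replicate numbers, in a way that crossed genotype and treatment. The arrays numbered 3 were the lowest of their group in all 4 groups for 14 of the 33 members, against 4.16% of all genes. These 14 were Muc4, Fcgbp, Clca1, Tff3, Spink4, Reg4, Mptx1, Creb3l1, Ern2, Agr2, Kit, Rep15, Bcas1 and Capn9. The arrays numbered 1 were the highest in all 4 groups for 8 members, against 10.4% of all genes. Muc1 had the widest range between the means of the 3 numbers, 3.17: it read -0.69, -2.70 and -3.98 with vehicle and -0.73, -2.42 and -3.81 with calcitriol in wild type, and 0.26, -2.74 and -3.34 with vehicle and -0.12, -2.92 and -2.85 with calcitriol in knockout. Number 1 was thus far above the others in each group, on a probe above background on all 12 arrays. For 24 of the 33 members the range between the means of numbers 1, 2 and 3 was larger than the calcitriol difference in wild type. The share over all genes was not computed, so this count is not read as a trait of the members. For Spink4 the range was 1.23 against 0.91, for Tff3 1.00 against 0.64, and for Reg4 1.54 against -0.73. The 9 for which it was smaller were Muc2, Tff2, Mptx1, Galnt3, Nupr1, Lrrc26, Slc12a8, Rep15 and Bcas1. Replicate numbers of the 2 genotypes are different animals of the same labelled age. The mice numbered 2 were labelled 3 months old and the others 2 months, and Xist also split by number. What made the numbers differ was not tested.

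**Figure D4:**
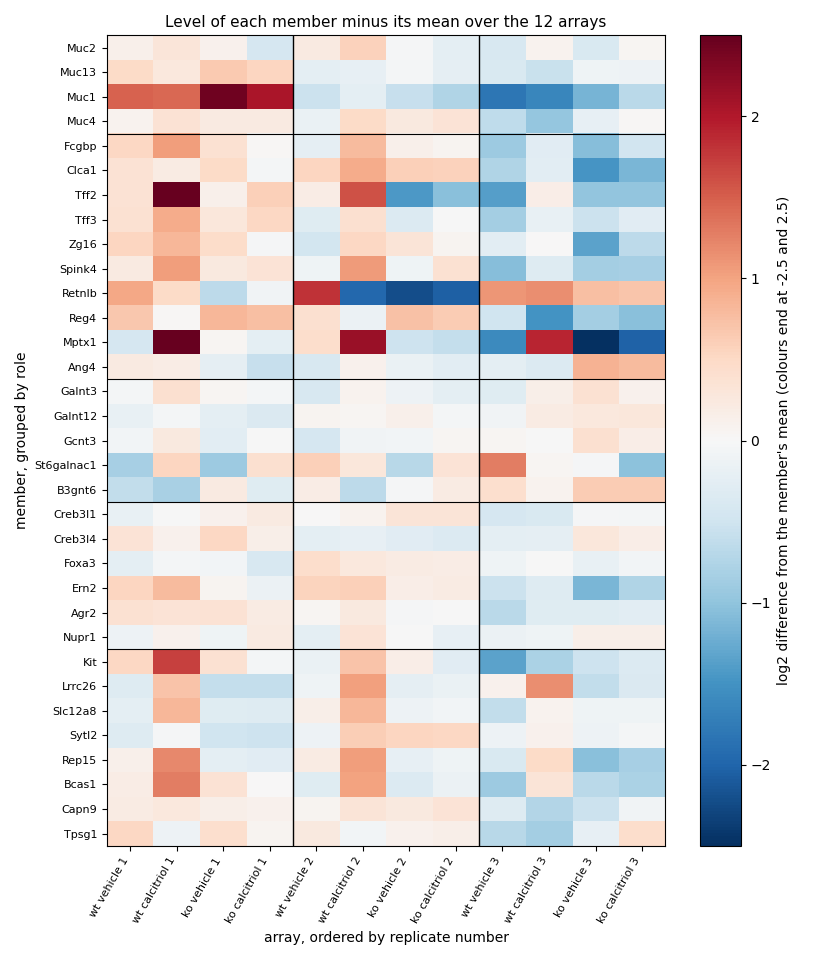
Level of each of the 33 members (y axis, grouped by role) minus its mean over the 12 arrays (colour, log2), with the arrays (x axis) ordered by replicate number and, within it, by group. Most secreted products are blue in the block of number 3, where 14 members were lowest in all 4 groups, and Muc1 is red in the block of number 1.

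Other genes of the same programme were read from lists of regulators, further mucins, glycosylation enzymes and folding and secretion factors. Of 11 regulators, 2 were called higher in wild type with the block. Atoh1, the transcription factor that commits cells to the secretory lineage, rose by 1.84 (SE 0.24; adjusted p = 0.0098 unblocked and 0.00033 blocked), by 1.98, 1.64 and 1.90 in the 3 mice. Neurog3, which commits cells to the enteroendocrine lineage, rose by 1.13 (SE 0.22; adjusted p = 0.108 unblocked and 0.00317 blocked). Spdef, which acts below Atoh1 in goblet cell maturation, differed by 0.49 (SE 0.16; 0.868, and 0.0538). The regulators as a list had a median of -0.05. Of 3 further mucins measured none was called, and Muc5b and Muc5ac, of the smallest p, differed by -0.81 (SE 0.47) and 0.08 (SE 0.57).

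Of 27 other glycosylation enzymes, 3 were called higher with the block. These were the fucosyltransferase Fut4 by 1.38 (adjusted p = 0.00676), the galactosyltransferase B3galt5 by 0.51 (0.0334) and the sulfotransferase Chst4 by 0.42 (0.0469), in a list whose median was 0.02. Of 39 folding and secretion genes, 4 were called higher with the block, in a list whose median was 0.01. Selenom, an endoplasmic reticulum selenoprotein, rose by 1.78 (SE 0.25; adjusted p = 0.0176 unblocked and 0.00024 blocked). Best2, an anion channel of colonic goblet cells, rose by 1.73 (adjusted p = 0.00186 with the block), Hepacam2 by 1.07 (0.0223) and Sval1 by 1.10 (0.0387). In calcitriol, the knockout differed from the wild type by -1.98 in Atoh1 (adjusted p = 0.00412) and by -2.07 in Selenom (0.00453). In knockout organoids no gene of these lists was called.

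All 9 defining goblet cell markers were above background on all 12 arrays, as were the 7 epithelial markers. Of the goblet markers, all but Atoh1 and Spdef are members of the set. The mean of that list is thus mostly the members' own values. The mean level of the goblet list was 2.61 to 3.54 in wild-type vehicle, 3.26 to 4.07 in wild-type calcitriol, 2.58 to 3.47 in knockout vehicle and 2.87 to 3.36 in knockout calcitriol, and it was higher by 0.53, 0.79 and 0.65 in wild-type mice 1, 2 and 3. Of the 5 deep crypt secretory markers 4 were above background on all arrays, Retnlb being the exception. All 5 are members of the set, and the list's mean differed by -0.03 in wild type. Reg4 (-0.73) and Retnlb (-1.40) were lower, and Spink4 (0.91), Kit (0.87) and Agr2 (0.18) were higher. The largest of these differences was that of Retnlb, of which mouse 2 gave -3.77. Calcitriol differed from vehicle in wild type by 0.03 for 11 colonocyte markers measured, -0.15 for 10 stem cell markers, -0.07 for 12 proliferation markers and 0.16 for 12 enteroendocrine markers. The Paneth list, of which 4 of 8 genes were on the array, was higher by 0.65, with a median of 0.40 and a range from -0.56 to 2.37. The highest was Itln1, a lectin also made by goblet cells, called within mice at 2.37 (adjusted p = 0.000509). Nupr1, another of the 4, is a member of the set. Kit is also a marker of mast cells and interstitial cells of Cajal. Of 8 mast cell markers measured, 2 were above background on all arrays, Mcpt1, Mcpt2 and Mcpt4 on some, and Cpa3, Ms4a2 and Fcer1a on none. The 2 markers listed for interstitial cells of Cajal, Ano1 and Etv1, were above background on all arrays. Their mean differed with calcitriol by 0.16 in wild type and by -0.09 in knockout. Which cells gave the Kit signal was not tested. Of 7 fibroblast markers, 1 was above background on all arrays, Col1a1, Col1a2, Col3a1 and Dcn on some, and Pdgfra and Lum on none. Of 10 immune markers 4 were above background on all arrays and the others on some. Of 5 endothelial markers 3 were above background on all arrays, Cdh5 on some and Tek on none. The tuft cell list differed by -0.93, of which mouse 2 gave -1.96, the animal whose vehicle array stood apart, and 1 of its 9 genes was above background on all arrays. The goblet and deep crypt secretory lists are no reading apart from the members. The part of the other lists' shifts in the members' differences was not tested.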

How the data were processed

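Per the labels, 100 ng of total RNA from each culture was labelled with 1 dye. The values the authors deposited are linear spot intensities from Agilent Feature Extraction 11.5.1.1 on a design annotated to mm9, per the file headers. Background subtraction and spatial detrending had been done in the processed intensity, and nothing between arrays.

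From these, control and outlier spots were left out, values were put on the log2 scale relative to their array's 75th percentile, and a probe's spots were averaged. A probe was kept if well above background on all 3 arrays of a group (33410 of 55681), and the brightest stood for its gene. Brightness depends on the probe, and the number of arrays limits the precision. limma 3.58.1 in R 4.3.3 was run with a variance trend on 24245 genes, 2-sided, in 5 comparisons, and was tested on simulated data. The labels name no statistical method.

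Same-numbered arrays of a genotype come from 1 mouse. Their deviations from group means correlated at 0.57, 0.32 and 0.32 in wild type and at 0.25, 0.59 and 0.10 in knockout, so mouse was the block. Between genotypes the number was the block (0.64, 0.13 and 0.40 in vehicle, 0.41, 0.40 and 0.34 in calcitriol). In the blocked fits the spread is that within mice or numbers, on few degrees of freedom.

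The members, lists and tests were chosen with earlier results of these data known. Values on each array are given for members called in any comparison in either fit, for the 2 members of highest mean level in each role, and for up to 3 others whose wild-type groups did not overlap. Muc1 was added after its values were seen. Of other lists, called genes are named, otherwise the 2 of smallest p. Alternatives covered background, scaling, filter, probe, slide, pairing and left-out arrays. Symbols and promoters are from RefSeq on GRCm38.p6.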

Additional observations from a re-analysis of the deposited data

Results flagged for a closer look

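For 2 members the effect of calcitriol differed between the genotypes by a test of the difference itself, with the mouse as a block in limma. For Lrrc26 the effect in wild type exceeded that in knockout by 0.97 on the log2 scale (blocked SE 0.10, adjusted p = 0.0171, and 0.886 without the block). For Bcas1 it exceeded it by 1.31 (blocked SE 0.16, adjusted p = 0.0319, and 1 without the block). With mouse as a random block the adjusted p was 0.0386 for Lrrc26 and 0.221 for Bcas1, so the call for Bcas1 was lost. Every one of the 3 wild-type mice was higher in calcitriol for both genes, by 1.02, 1.14 and 1.05 for Lrrc26 and by 1.10, 1.32 and 1.23 for Bcas1. The 3 knockout mice differed by 0.01, 0.05 and 0.25 for Lrrc26 and by -0.35, 0.20 and -0.12 for Bcas1. With slide as a block in place of mouse the values were 0.69 and 0.91, each with an adjusted p of 1.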

How the results depend on the processing

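Slide and treatment overlap strongly in wild type, no knockout mouse had both arrays on 1 slide, and 3 mice a genotype set the precision. For calcitriol in wild type, 1 member was called between group means and 10 with the replicate block. The count was 5 with mouse as a random block, and 0 with only the arrays compared, without a variance trend, with slide as a block, on the largest slide only, and without wild-type vehicle arrays 2 and 3, an alternative chosen after seeing the data. Leaving out 1 array gave 0 to 1. With the replicate block, leaving out replicate 1, 2 or 3 gave 2, 0 and 17, and leaving out wild-type mouse 1, 2 or 3 alone, also chosen after seeing the data, gave 2, 2 and 3. Over all 24245 genes, 168 were called with mouse as a random block. With the replicate block, 51, 8 and 2086 were called without replicate 1, 2 or 3. Without wild-type mouse 1, 2 or 3 alone, 67, 46 and 87 were. Without replicate 3, no remaining mouse had both arrays on 1 slide, and 2086 genes were called in wild type and 2787 in knockout, 2 of them members. For the difference of the calcitriol effects, the count of 0 became 2 with the replicate block, 1 with mouse as a random block and 4 with the block without replicate 3. Between genotypes in calcitriol, the count of 1 became 4 with the replicate block, 5 with that block over 12 arrays, 0 on the largest slide, and 0, 4 and 14 with the block without replicate 1, 2 or 3. For the random block, the 12 arrays and the left-out replicates, calls over all genes are not given in these 2 comparisons. Those counts are not read as a trait of the members. Between genotypes in vehicle the count of members was 0 in every alternative run.

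Over all genes, the replicate block moved the calls from 39 to 235 in wild type, from 7 to 58 for the difference of effects and from 50 to 128 between genotypes in calcitriol. Scaling to the median raised them to 70 and 21 for the wild type and the difference, slide as a block lowered them to 6 and 1, and the largest slide alone to 3, 2 and 16. Scaling to the median shifted the median of all genes to 0.44 in wild type, -0.25 in knockout, 0.69 for the difference and 0.70 between genotypes in vehicle. The members' medians moved with it, to 0.67, -0.28, 1.02 and 0.84. Lrrc26 then had a wild-type difference of 1.54 (adjusted p = 0.120). The members' wild-type median was 0.35 with slide as a block, 0.59 on the largest slide and 0.08 without wild-type vehicle arrays 2 and 3. Among the called differences, 1 changed sign, Tff3 in wild type at -0.01 without wild-type vehicle arrays 2 and 3. The cause of these changes was not tested.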

Other observations

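Outside the secretory genes, called genes of the marker lists were few. In wild-type organoids with the mouse as a block in limma, Alpi, an intestinal alkaline phosphatase of absorptive cells, rose by 1.23 with calcitriol (adjusted p = 0.0132), by 1.00, 1.43 and 1.25 in the 3 mice. Ascl2, a transcription factor of crypt stem cells, fell by 0.59 (adjusted p = 0.0276), and the stem cell gene Smoc2 had a difference of -0.98 without a call (0.0571). Itln1 rose by 2.37, and its effect was 2.27 larger in wild type than in knockout (adjusted p = 0.00759 with the block). In the knockout mice Itln1 differed by 0.03, 0.41 and -0.13. The water channel Aqp8 of surface colonocytes had a difference of -1.12 in wild type without a call (0.0581).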
